A study of Mus musculus with 8 samples.

Results

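The Hippo pathway genes Yap1, Wwtr1 (which encodes Taz), Tead1, Tead2, Tead3, Tead4, Amotl1, Amotl2, Ajuba and Lats2 were examined for acetylation of histone H3 at lysine 27 (H3K27ac), which marks promoters and enhancers in use. These 10 genes were taken by name from 21883 mouse protein-coding genes, and a window for each gene was its RefSeq span in mm10 plus 10 kb on each side. The cells were mpkCCD (clone 11), a mouse line of the cortical collecting duct at passages 6 to 10, grown on permeable supports and held for 24 h without serum and hormones before treatment. The treated group had received 0.1 nM dDAVP, a vasopressin analogue selective for the V2 receptor, for 24 h, and the control group its vehicle for the same time (n = 2 experiments each, with 1 H3K27ac library and 1 input library per treatment and experiment). All cells are of 1 clone, and beyond numbering the experiments the labels do not state what was kept apart between them.

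In the Hippo pathway, the kinases Lats1 and Lats2 phosphorylate Yap1 and Taz, which are then held in the cytoplasm or degraded. Without this phosphorylation both proteins enter the nucleus and bind the Tead transcription factors, which recognise DNA and switch on growth and cytoskeletal genes. Angiomotin-like proteins bind Yap1 at cell junctions, and Ajuba, a LIM protein, binds and restrains the Lats kinases. In epithelia such as the renal tubule, cell contact and tension act on this pathway.

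The authors' 4 peak lists, 1 per H3K27ac library, held 37235 and 20124 peaks with dDAVP in experiments 1 and 2, against 39745 and 29597 with vehicle. They covered 99.0 and 33.5 Mb with dDAVP, against 104 and 56.9 Mb with vehicle. A list therefore covered less with dDAVP in both experiments, and dDAVP replicate 2 was the shortest. Tags kept after filtering ranged from 27923780 to 32705755 in the H3K27ac libraries and from 30753752 to 38291361 in the inputs. All 6 principal cell markers checked, among them Aqp2, Avpr2 and Scnn1a, had peaks in all 4 lists within their windows. Of the markers of other cells, none was called in any list for 2 of 3 intercalated cell genes, among them Foxi1, for 3 of 3 proximal tubule genes and for 2 of 2 podocyte genes, while Slc12a3, Pecam1, Cd68 and Pdgfrb had peaks in all 4 lists, Ptprc and Col1a1 in 3, and Slc4a1 of intercalated cells in both lists of experiment 1.

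Sequence at the start of the genes is shown because the marked stretch lies there in most of these genes. RefSeq promoters (GRCm38.p6, 250 bases before and 50 after the start) were matched for 8 of the 10 genes, not for Tead1 and Tead4. Promoters were searched for the Tead motif GGAATG on both strands, and 6 of the 8 held it: Yap1, Wwtr1, Tead3, Amotl2, Ajuba and Lats2. Of the promoters of 17491 protein-coding genes, 1 per gene at the most upstream start in the promoter set, 13.5% held it. The AP-1 motif TGANTCA and the cAMP response element TGACGTCA, both their own reverse complement, were in 0 of the 8 promoters, against 7.03% and 2.33% of all. The shorter core TGACG, searched on both strands and contained in the full element, was in those of Amotl1 and Lats2, 2 of 8, against 23.8% of all. A match is a stretch of letters, not a site known to be bound, and no test was made.

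Of the 7 promoters whose start lay under a peak in all 4 lists, those of the 2 coactivator genes are given, and of the other 5 the 2 with the highest mean within-list percentile of that peak, Ajuba and Lats2, 5' to 3' on the strand of the gene. Capitals mark GGAATG or its reverse complement CATTCC, and TGACG. All 4 genes lie on the minus strand: Yap1 at chr9:8004547-8004846, Wwtr1 at chr3:57575861-57576160, Ajuba at chr14:54577612-54577911 and Lats2 at chr14:57746074-57746373.
Yap1: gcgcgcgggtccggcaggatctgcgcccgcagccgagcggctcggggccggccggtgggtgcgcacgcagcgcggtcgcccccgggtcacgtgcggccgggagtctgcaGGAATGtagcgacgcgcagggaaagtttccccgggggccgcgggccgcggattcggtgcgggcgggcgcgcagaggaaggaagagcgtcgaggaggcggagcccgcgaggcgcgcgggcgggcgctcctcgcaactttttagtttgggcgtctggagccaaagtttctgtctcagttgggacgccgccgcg
Wwtr1: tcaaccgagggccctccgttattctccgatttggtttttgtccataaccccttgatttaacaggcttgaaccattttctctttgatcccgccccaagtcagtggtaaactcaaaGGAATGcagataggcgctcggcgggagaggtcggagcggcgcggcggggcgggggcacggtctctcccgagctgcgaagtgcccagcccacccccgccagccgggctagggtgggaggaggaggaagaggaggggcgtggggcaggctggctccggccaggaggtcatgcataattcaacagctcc
Ajuba: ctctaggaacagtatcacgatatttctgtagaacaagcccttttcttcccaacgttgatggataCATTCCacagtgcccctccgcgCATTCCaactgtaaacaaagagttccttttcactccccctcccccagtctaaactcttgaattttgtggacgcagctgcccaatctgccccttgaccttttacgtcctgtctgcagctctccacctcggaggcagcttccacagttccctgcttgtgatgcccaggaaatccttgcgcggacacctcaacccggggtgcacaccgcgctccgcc
Lats2: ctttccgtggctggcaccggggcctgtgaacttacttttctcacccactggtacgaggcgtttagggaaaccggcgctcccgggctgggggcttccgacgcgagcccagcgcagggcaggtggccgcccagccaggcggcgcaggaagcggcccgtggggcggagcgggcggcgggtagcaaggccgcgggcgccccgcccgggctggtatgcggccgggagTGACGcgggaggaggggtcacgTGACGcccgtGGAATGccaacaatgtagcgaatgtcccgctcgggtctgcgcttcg
Counted from the start, with -1 the base before it, the motif began at -141 in Yap1 and at -136 in Wwtr1, both as GGAATG. Ajuba held it at -186 and -164 as CATTCC, and Lats2 at 5, within the transcribed part. GC content was 74.0% in the Yap1 promoter, 61.7% in that of Wwtr1, 54.0% in that of Ajuba and 71.7% in that of Lats2, where the median of promoters called in all 4 lists was 62.0%.

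All 10 genes had a peak within their window in all 4 lists, as had 57.4% of protein-coding genes. In such bulk samples, fewer acetylated cells and less acetylation per cell cannot be told apart. As the mean share of the window covered over the 4 lists, Amotl2 came first with 61.4% ± 15.1 (SD, n = 4 lists), followed by Tead3 with 49.6% ± 20.8, Ajuba with 31.0% ± 8.38 and Tead1 with 16.7% ± 7.70. Wwtr1 had 13.0% ± 7.13, Tead4 12.0% ± 5.34, Lats2 8.53% ± 4.21, Tead2 7.75% ± 5.02, Amotl1 7.11% ± 2.74 and Yap1 3.25% ± 0.529. In this order Tead3 exceeded Ajuba, Ajuba exceeded Tead1, Tead1 exceeded Wwtr1, Tead4 exceeded Lats2 and Amotl1 exceeded Yap1 in each of the 4 lists. Amotl2 and Tead3, Wwtr1 and Tead4, Lats2 and Tead2, and Tead2 and Amotl1 changed places in at least 1 list, and their mean differences were smaller than the SD of those differences. Over the 12555 genes called in all 4 lists the median was 8.82%, so Yap1 lay at percentile 15.5 of them and Amotl2 at percentile 99.3. These shares depend on window length, since flanks of 10 kb make up more of the window of a short gene.

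Yap1, the coactivator gene that names the pathway's best known output, carried a single peak over its start and none elsewhere in a window of 92640 bp (chromosome 9, gene span 7931999 to 8004638). The peak covered 3325 and 2428 bp with dDAVP in experiments 1 and 2, against 3496 and 2795 bp with vehicle. It was shorter with dDAVP in both experiments, while the ranges of the treatments overlapped. The authors' fold over local background was 6.87 and 4.73 with dDAVP, against 6.87 and 7.69 with vehicle. Fold is the authors' value for each peak, and its rank is given within each list. These stood at percentiles 89.6 and 67.7 of all peaks of the dDAVP lists and 88.0 and 89.6 of the vehicle lists, so dDAVP replicate 2 gave the lowest of the 4. The protein-coding genes whose 4 covered lengths came closest to those of Yap1 were Zcchc13, Smg8 and Zc3h11a, with Euclidean distances of 0.0852, 0.110 and 0.111 on the log2 scale over the 4 lists.

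Wwtr1, which encodes the coactivator Taz, differed from Yap1 in holding acetylation along its gene as well as at its start (chromosome 3, 57455644 to 57575910). Its window held 8 and 5 peaks with dDAVP, against 10 and 6 with vehicle, and 25284 and 7388 covered bp with dDAVP, against 28165 and 12379 bp with vehicle. Coverage was lower with dDAVP within each experiment, and both values of experiment 1 were above both of experiment 2. Merging the lists gave 12 regions, of which 3 were called in all 4 lists and 7 in 1 list alone, 5 of them in vehicle replicate 1. The 3 shared regions were one that holds the start, a region from 96.6 to 103 kb above the lower-coordinate end of the gene, so inside it and below the start, and a region at 13.5 to 18.7 kb, near the other end. The start peak had fold 8.38 and 8.15 with dDAVP, against 7.29 and 14.8 with vehicle, and reached percentile 99.8 in vehicle replicate 2. Lrba, Smagp and Igf2bp2 had the covered lengths most like those of Wwtr1, at distances of 0.153, 0.173 and 0.176.

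**Figure D1:**
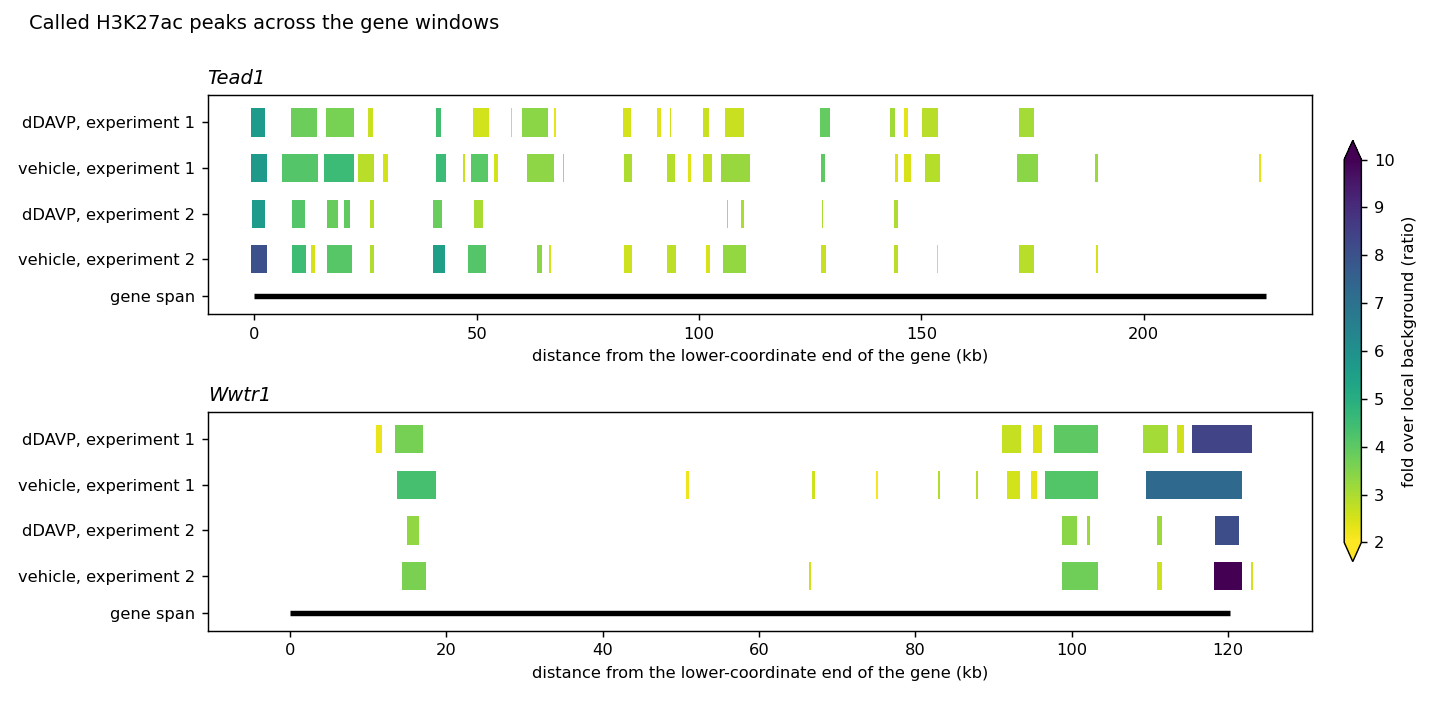
Called H3K27ac peaks (boxes, coloured by the authors' fold, a ratio over local background) in the windows of Tead1 and Wwtr1, by list from top to bottom, against distance in kb from the lower-coordinate end of the gene. Tead1 holds 19 and 11 peaks with dDAVP, against 23 and 18 with vehicle, and the few boxes of dDAVP replicate 2 toward the right end are narrow, while Wwtr1 has 3 regions called in all lists.

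The 4 Tead genes, which encode the DNA-binding partners of Yap1 and Taz, ranged from 1 called region in Tead2 to 25 in Tead1. Tead1 spans 227429 bp (chromosome 7, 112679356 to 112906784), and had 47815 and 16575 covered bp with dDAVP, against 62023 and 39072 bp with vehicle. Coverage was lower with dDAVP in both experiments, with ratios of 0.771 and 0.424. The ratio in experiment 2 stood at percentile 13.1 of all genes called in all 4 lists, and that in experiment 1 at percentile 12.5. Of the 25 regions 9 were called in all 4 lists, and 6 were missing from dDAVP replicate 2 alone, spread between 60.3 and 176 kb from the lower-coordinate end. The peak over that end had the highest fold of the window in each list, 5.63 and 5.65 with dDAVP, against 5.68 and 8.04 with vehicle. One region, of 697 bp (chromosome 7, 112868356 to 112869052), was called with vehicle in both experiments and with dDAVP in neither. Its fold was 3.19 and 2.51, at percentiles 52.4 and 8.44 of the vehicle lists, and its -log10 q was 3.80 and 1.72, so it was a weak call in vehicle replicate 2.

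Tead4 (chromosome 6, 128227143 to 128300813) was like Tead1 in its ratios, 0.753 and 0.443. It had 12661 and 4785 covered bp with dDAVP, against 16815 and 10802 bp with vehicle, lower with dDAVP in both experiments. Of its 8 regions 3 were called in all 4 lists: over the upper-coordinate end, at 57.3 to 60.8 kb from the lower end, and just below the lower end. The highest fold in the window was 5.92 and 5.21 with dDAVP, against 5.84 and 7.39 with vehicle. It lay in the region at 57.3 to 60.8 kb in dDAVP replicate 1 and over the upper end in the other 3 lists.

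Tead3 had wide acetylation on a short gene of 19135 bp (chromosome 17, 28331671 to 28350805), but its window also holds Rpl10a, a ribosomal protein gene, and parts of Fance and Tulp1. Covered lengths were 23986 and 11516 bp with dDAVP, against 28476 and 13597 bp with vehicle. The ratios were nearly equal in both experiments, 0.842 and 0.847. In vehicle replicate 1 a single peak of 27913 bp covered all of Tead3 and Rpl10a, so the genes could not be separated there. The highest fold of the window in dDAVP replicate 1, 8.60, was that of a peak over Rpl10a and the end of Tead3. Tead2 (chromosome 7, 45215792 to 45233468) had 1 peak in each list, of 5002 and 1011 bp with dDAVP, against 3997 and 1663 bp with vehicle. It was longer with dDAVP in experiment 1 and shorter in experiment 2, and its window holds Dkkl1, Cd37 and part of Slc6a16. The Tead2 start, at the lower-coordinate end, lay under the peak in 3 lists. In dDAVP replicate 2 the peak was called within the gene only, beginning 0.081 kb from the start.

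Lats2, the kinase gene that restrains Yap1 and Taz, had 7688 and 3012 covered bp with dDAVP, against 10426 and 5003 bp with vehicle (chromosome 14, 57689662 to 57746212). The ratios were 0.737 and 0.602, at percentiles 9.65 and 32.8 of all genes called in all 4 lists. Its start peak was slightly wider with dDAVP in experiment 1 and narrower in experiment 2, 3332 and 2033 bp wide with dDAVP, against 3298 and 2331 bp with vehicle, with fold 7.03 and 8.55, against 6.96 and 10.8. Much of the difference lay outside it. A region of 2249 bp (chromosome 14, 57751839 to 57754087), 5716 to 7964 bp upstream of the start and within the neighbouring gene Gm52140, was likewise called with vehicle in both experiments and with dDAVP in neither. Its fold was 2.44 and 2.81, at percentiles 17.7 and 26.6 of the vehicle lists.

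Of the junction and scaffold genes, Amotl2 and Ajuba, both short, were among the most covered of the set by share of the window, while Amotl1 had 7.11%. Amotl2, an angiomotin-like gene that is also a known target of Yap1, lay wholly under 1 peak in 3 of the 4 lists (chromosome 9, 102717091 to 102733418), with 25699 and 14144 bp with dDAVP, against 25117 and 24334 bp with vehicle. Coverage was alike in experiment 1 and lower with dDAVP in experiment 2. That peak was 24881 bp wide in dDAVP replicate 1, 25117 bp in vehicle replicate 1 and 24334 bp in vehicle replicate 2. In dDAVP replicate 2 the same stretch was called as 5 separate peaks, of which the one over the start, 5191 bp wide, had fold 8.32 at percentile 96.3. The wide peaks of the other lists ranked lower within their lists, from percentile 78.8 in dDAVP replicate 1 to 87.8 in vehicle replicate 2.

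Amotl1, its paralogue, had 12998 and 4931 covered bp with dDAVP, against 13055 and 9135 bp with vehicle (chromosome 9, 14541966 to 14662974). The start used, at 14615000 on the minus strand, lies inside this span and not at its upper end. In experiment 1 the lists differed by 57 bp, and in experiment 2 the ratio was 0.540. Of its 5 regions 1, over the start, was called in all 4 lists, and 3 were missing from dDAVP replicate 2 alone. Ajuba, the LIM protein gene, had 1 peak in each list that covered most of the gene and its start (chromosome 14, 54567469 to 54577661, with part of 4931414P19Rik in the window). It was 10923 and 6755 bp wide with dDAVP, against 12039 and 7693 bp with vehicle, and the ratios, 0.907 and 0.878, were close to each other. Its fold was 7.65 and 6.97 with dDAVP, against 9.64 and 12.1 with vehicle, at percentiles 93.1 and 91.2 of the dDAVP lists and 97.6 and 98.7 of the vehicle lists.

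**Figure D2:**
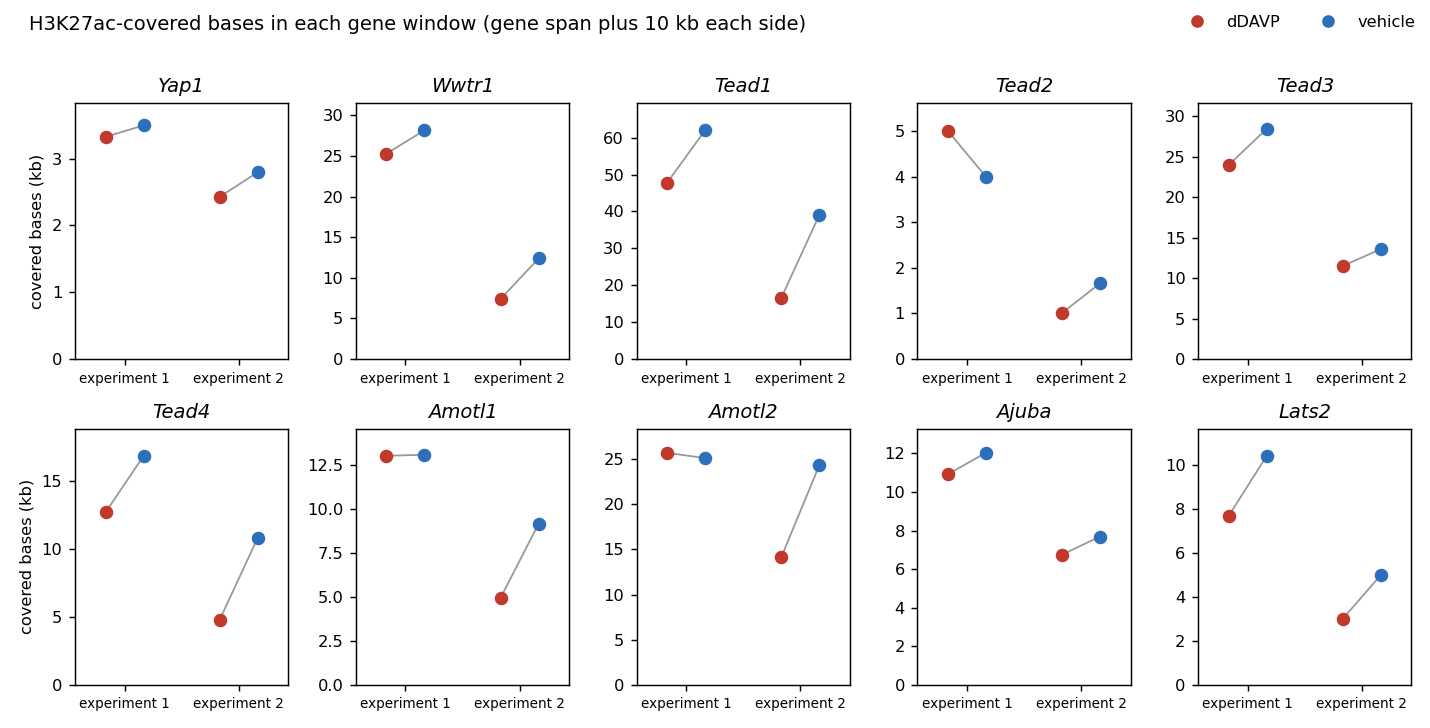
Covered bases (kb) in the window of each gene by experiment, with dDAVP (red) left of vehicle (blue) and a line joining the lists of 1 experiment. Points of experiment 1 lie above those of experiment 2 for the same treatment in all 10 genes, and 8 genes are lower with dDAVP in both experiments.

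Set side by side, 8 of the 10 genes had fewer covered bases with dDAVP in both experiments, the exceptions being Tead2 and Amotl2, and 0 had more in both. Of the 12555 genes called in all 4 lists, 51.4% had fewer in both and 2.84% more in both. The median ratio over the 10 genes was 0.902 in experiment 1 and 0.599 in experiment 2, where the medians over all genes were 0.987 and 0.714. The covered bases of dDAVP and vehicle lists overlapped in all 10 genes, so 0 of 10 had both dDAVP values below or above both vehicle values, against 5.66% of all genes below and 0.104% above. The difference dDAVP minus vehicle was -18353 ± 5861 bp in Tead1 and -1027 ± 126 bp in Ajuba (SD, n = 2 pairs). It was smaller than its SD in Amotl2 (-4804 ± 7617 bp), Amotl1 (-2131 ± 2932 bp) and Tead2 (177 ± 1172 bp). The exact permutation test, two-sided, gave p = 0.667 for 8 genes and p = 1 for Tead2 and Amotl2, and 2 lists against 2 cannot give a p below 0.333. Such p-values measure only the spread between these lists, which may be technical. The total covered length was lower with dDAVP too, and its part in these differences was not tested. With both lists of an experiment reduced to equal covered bases, 4 of the 10 genes, Yap1, Tead4, Ajuba and Lats2, had fewer covered bases with dDAVP in both experiments, against 36.6% of all genes. The median log2 ratio over the 10 genes was then -0.11 in experiment 1 and -0.20 in experiment 2, where all genes gave 0.02 and -0.23. The median of the 10 was thus no longer below that of all genes in experiment 2. The Tead1 difference was then -2849 ± 13844 bp, with a ratio of 0.791 in experiment 1 and 1.72 in experiment 2. Its direction in experiment 2 was thus turned round. So were those of Wwtr1, Tead3 and Amotl1, with ratios of 2.12, 1.14 and 1.14 in experiment 2. That setting removed weak peaks from the vehicle lists alone. Vehicle replicate 2 was cut from 29597 to 11642 peaks, lowest -log10 q first, while dDAVP replicate 2 kept 20124. Coverage of Tead1 in vehicle replicate 2 fell from 39072 to 9635 bp.

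**Figure D3:**
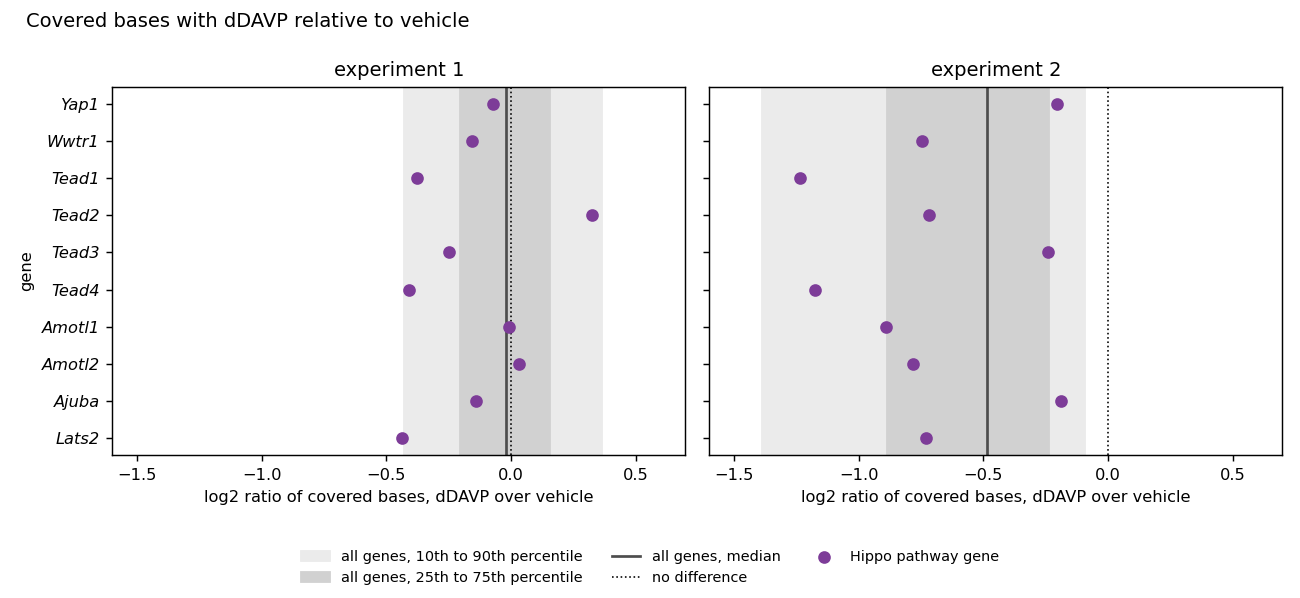
Log2 ratio of covered bases, dDAVP over vehicle, for each gene (points) in each experiment, over the range of all genes called in all 4 lists (light band, 10th to 90th percentile; dark band, 25th to 75th; solid line, median). Tead1 and Tead4 lie left of the darker band in both experiments, and Yap1, Tead3 and Ajuba lie right of the median in experiment 2.

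The peaks over the starts were compared by width, which the listed starts allowed for 7 genes called there in all 4 lists, of 8 with a start. Over all genes with a start, 38.8% had it under a peak in all 4 lists. The start peak was narrower with dDAVP in both experiments in 6 of the 7 genes, and Lats2 was the exception, while 47.0% of all such start peaks were. It was wider in both in 0 of 7, against 5.05%. The median log2 width ratio over the 7 was -0.14 in experiment 1 and -0.20 in experiment 2, where all start peaks gave -0.01 and -0.28. In experiment 1 the Wwtr1 peak reached 4837 bp into the gene with dDAVP, against 10814 bp with vehicle, and the Amotl1 peak 3805 bp against 7664 bp. At both genes the stretch under 1 vehicle peak was called as separate peaks with dDAVP. The same held at Tead3 in experiment 1, with 14955 bp with dDAVP, against 27913 bp with vehicle. It also held at Amotl2 in experiment 2, with 5191 bp against 24334 bp. Upstream of the start the order was the other way at Wwtr1 and Amotl1 in experiment 1. At Wwtr1 it was 2834 bp with dDAVP, against 1503 bp with vehicle, and at Amotl1 1195 bp against 970 bp.

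**Figure D4:**
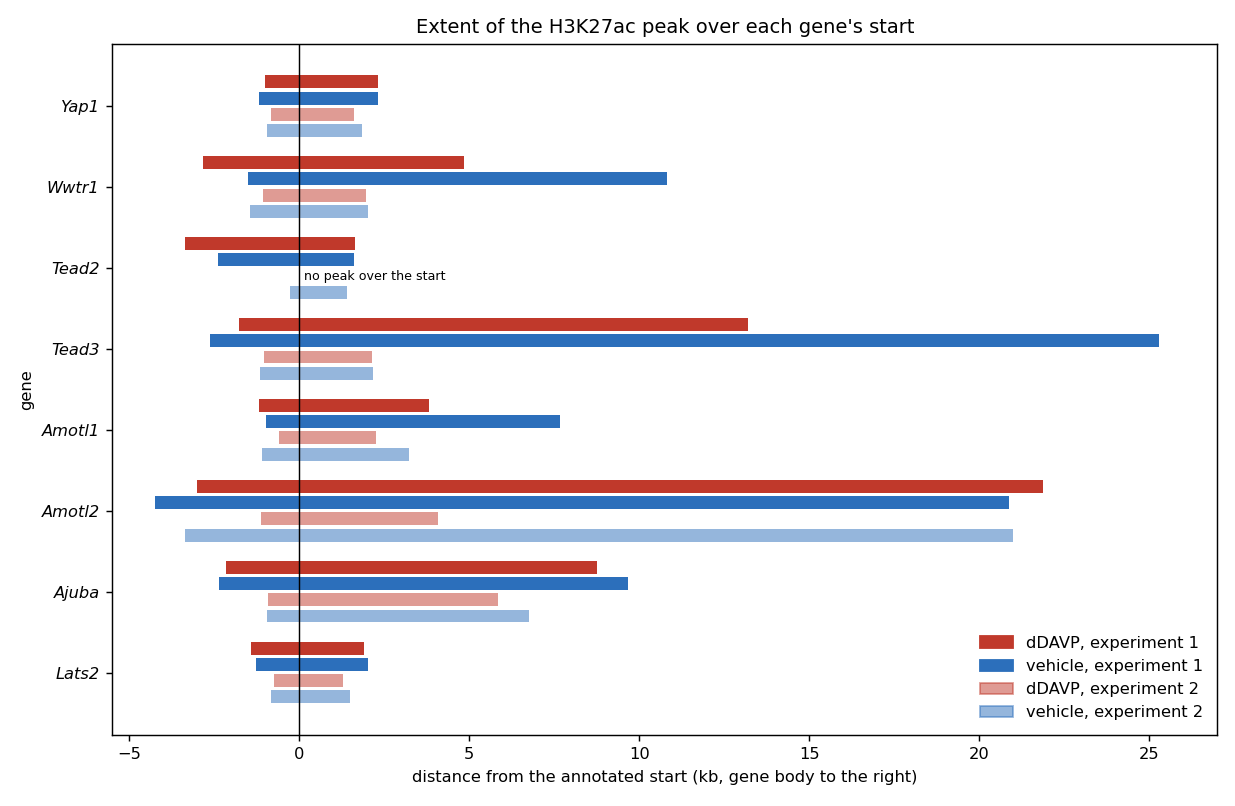
Extent in kb of the peak over the annotated start of 8 genes, with upstream to the left, for dDAVP (red) and vehicle (blue) in experiment 1 (full colour) and experiment 2 (pale). Yap1 and Lats2 have narrow peaks of like extent in all lists, and Amotl2 is wide in 3 of the 4 lists. Tead2 has no peak over its start in dDAVP replicate 2, where its peak, not drawn, begins 0.081 kb inside the gene.

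Merged over the 4 lists, the 10 windows held 62 of 45705 regions. Called in all 4 lists were 24 of 62 (38.7%), against 36.2% of all regions. Missing from dDAVP replicate 2 alone were 10 (16.1%), in Tead1, Amotl1 and Tead4, against 12.6%. The vehicle-only regions were the 2 described in Tead1 and Lats2 (3.23%), against 2.51%, and dDAVP-only regions numbered 0, against 0.0635%. With equal numbers of peaks or equal covered bases in both lists of an experiment, vehicle-only regions numbered 0 in the 10 windows. These rules shorten only the vehicle lists, dropping the lowest -log10 q first. The 2 regions had -log10 q of 1.72 and 2.24 in vehicle replicate 2, so this 0 shows no more than their weak calls. Regions with dDAVP only numbered 0 with equal numbers of peaks within each experiment. They numbered 1 with equal numbers of peaks in all lists and 1 at equal covered bases. Both of these settings dropped vehicle peaks, and in the lists as deposited the number was 0. Called in dDAVP replicate 1 alone were 7 (11.3%), against 11.9%, and in vehicle replicate 1 alone 14 (22.6%), against 15.4%, of which 6 lay in Tead1 and 5 in Wwtr1. Called in both lists of experiment 1 and neither of experiment 2 were 4 (6.45%), against 16.0%.

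A further 50 genes of the pathway, in 5 lists by role, were examined in the same way. Of these, 46 had peaks in all 4 lists, against 57.4% of all protein-coding genes. Vgll1 and Vgll2, cofactors of the Tead proteins, had none in any list, while their relatives were covered in all. Vgll3 had 5041 and 3146 bp with dDAVP, against 6538 and 4079 bp with vehicle, and Vgll4 45774 and 10186 bp, against 45958 and 21726 bp. Fat4, an atypical cadherin gene upstream of the pathway, had 418 bp with dDAVP, against 380 bp with vehicle in experiment 1, and none in experiment 2. Wtip, a LIM protein gene of the Ajuba family, had a peak in neither dDAVP list, against 707 and 1279 bp with vehicle. Of the 46 genes, 35 had fewer covered bases with dDAVP in both experiments and 0 had more in both, where the shares over all genes were 51.4% and 2.84%. With both lists of an experiment reduced to equal covered bases, 17 of the 44 still called in all 4 lists had fewer in both and 2 had more in both, against 36.6% and 13.3% of all genes. In the lists as deposited, 8 of the 46 had both dDAVP values below both vehicle values, against 5.66% of all genes: 5 target genes, 2 upstream regulators and Amot.

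The kinase cassette around Lats1, Stk3 and Stk4 had a median log2 ratio of -0.23 in experiment 1 and -0.32 in experiment 2, where all genes gave -0.02 and -0.49. It was the lowest of the 5 lists in experiment 1 and the highest in experiment 2. In that group 4 of 8 genes had fewer covered bases with dDAVP in both experiments, against 51.4% of all genes. Stk3, the upstream kinase Mst2, had the lowest mean log2 ratio with 9148 and 4215 bp with dDAVP, against 14055 and 5326 bp with vehicle, and Stk38, a Lats-related kinase gene, highest with 11449 and 2678 bp, against 11667 and 2184 bp. Among upstream regulators 8 of 11 had fewer in both, against the same 51.4%. Nf2, which encodes the tumour suppressor Merlin, was lowest with 2227 and 626 bp with dDAVP, against 3774 and 1602 bp with vehicle, and Taok2 was highest with 7004 and 2885 bp, against 6117 and 3684 bp. The treatments overlapped at these 4 genes. They did not at Map4k4 and Frmd6, kinase and FERM domain genes named after their values were seen. Map4k4 had 2313 and 1439 bp with dDAVP, against 4280 and 2559 bp with vehicle, and Frmd6 4280 and 3052 bp, against 6099 and 5309 bp.

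Polarity and junction regulators had fewer covered bases with dDAVP in both experiments in 10 of 13 genes, against 51.4% of all genes. Amot, the founding angiomotin gene, was lowest with 2354 and 289 bp with dDAVP, against 3553 and 3351 bp with vehicle, and did not overlap between treatments, as 1 of 13 here and 5.66% of all genes. Patj, a scaffold gene of the Crumbs complex, was highest, with 16200 and 2936 bp, against 12872 and 3282 bp.

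Target genes of Yap1 and Taz had fewer covered bases with dDAVP in both experiments in 11 of 12 genes, the exception being Arhgef17, with 17255 and 2847 bp with dDAVP, against 14885 and 3061 bp with vehicle. The median log2 ratios were -0.21 and -0.65, where all genes gave -0.02 and -0.49. Crim1 was lowest, with 40739 and 10250 bp with dDAVP, against 46853 and 31535 bp with vehicle. At Ccn1, Ccn2, Ankrd1, Nuak2 and Tgfb2, named after their values were seen, both dDAVP values lay below both vehicle values. Such genes made up 5 of 12 here and 5.66% of all genes, and no p below 0.333 is possible for any of them. Ccn1, a matrix protein gene, had 6070 and 5873 bp with dDAVP, against 8759 and 8854 bp with vehicle, and Ccn2, its relative, 6884 and 4968 bp, against 8063 and 7230 bp. With both lists of an experiment reduced to equal covered bases, 6 of the 11 target genes still called in all 4 lists had fewer in both, against 36.6% of all genes. Their median log2 ratios were then -0.14 and -0.12, where all genes gave 0.02 and -0.23.

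**Figure D5:**
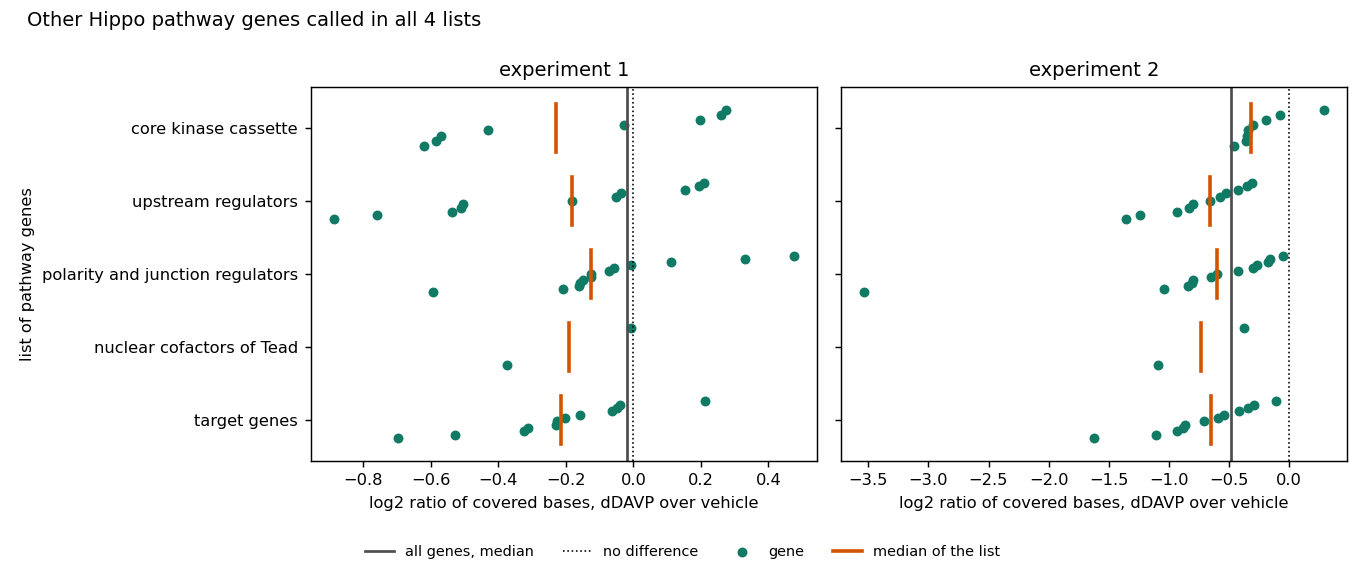
Log2 ratio of covered bases, dDAVP over vehicle, for the pathway genes called in all 4 lists (points), by role and experiment, with the median of each list (orange) and of all genes (grey). In experiment 2 all points but Stk38 lie below 0, Amot is lowest at -3.54, and the medians of the lists lie on both sides of the median of all genes.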

How the data were processed

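H3K27ac ChIP-seq of mpkCCD cells was deposited as peak lists. The submitters' processing notes name BWA, SAMtools, MACS2 and the build mm10. The caller was MACS 2.1.1.20160309, per the file headers, run for broad peaks on each H3K27ac library with the input library of matching treatment and experiment number as control, without pooling, at q limits of 0.01 for strong and 0.1 for broad regions, with 1 tag kept per position. The deposited pileup, not used here, is the authors' signal, a mean tag coverage per peak, and the deposited fold is their ratio of it to local background. A further pair of deposited columns had no legible names and was read by place and range as the -log10 p and -log10 q of the caller. The lists were attached to the input records, while their headers name the H3K27ac library. The caller extends and joins enriched stretches, so covered bases move with depth and enrichment, and reads per region were not analysed here.

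Only autosomes, X and Y were considered. Covered bases of each list were summed in windows of 21883 protein-coding genes from a RefSeq table (GRCm38.p6, the assembly of mm10), with an overlap of at least 1 bp, and compared within experiments. Percentiles rank the fold within a list. Touching or overlapping peaks were merged into regions. Calculations used Python 3.11.15, numpy 2.4.6 and pandas 2.3.3, and were tested on simulated peaks of known length. The experiment number in the titles pairs the lists, and deviations of same-numbered lists from the treatment mean correlated at 0.62 over 12555 genes. The 50 pathway genes were all matched, Pals1 as Mpp5. In the lists of other pathway genes, those named are the lowest and highest by mean log2 ratio and those not called in all 4 lists, while Map4k4, Frmd6 and the 5 target genes without overlap between treatments were named after their values were seen. Members, lists and tests were chosen with earlier results of these data known.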

Additional observations from a re-analysis of the deposited data

How the results depend on the processing

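Calls, widths and covered bases were recomputed with peaks at a -log10 q of at least 5, with a fold of at least 5, with equal numbers of peaks, with equal covered bases, in the gene span alone, with flanks of 25 kb, by peak midpoints and without either experiment. For the covered bases of the 10 genes, 80 such values with all lists kept had 5 with the other sign. The count of genes with fewer covered bases with dDAVP in both experiments, 8, was 4 at equal covered bases. The mean difference dDAVP minus vehicle was then 1215 bp in Wwtr1 and 280 bp in Amotl1, on the other side of 0. It was -2849 bp in Tead1, -1530 bp in Tead3, -3447 bp in Tead4 and -850 bp in Lats2. In experiment 2 alone it was then 3904 bp in Wwtr1, 6940 bp in Tead1, 1430 bp in Tead3 and 617 bp in Amotl1. As deposited it was below 0 there in each of these genes. At equal numbers of peaks within experiments the mean difference was also 280 bp in Amotl1. Tead2 was at -832 bp with a fold of at least 5 and at -184 bp in the gene span alone, against 177 bp. For these the cause was not tested. Leaving out 1 list leaves no pair in its experiment, so for paired measures the experiment was left out. Without 1 experiment, Tead2 ranged from -652 to 1005 bp, Amotl2 from -10190 to 582 bp, and the count of genes with more covered bases with dDAVP from 0 to 2. Target genes with fewer covered bases with dDAVP in both, 11 of 12, numbered 6 with a fold of at least 5 and 6 at equal covered bases. These counts do not require a call in all 4 lists. With a fold of at least 5, only Ankrd1, Axl, F3 and Asap1 among target genes were called in all 4. Of all genes called in all 4 lists, 51.4% had fewer in both. That share was 48.7% with a fold of at least 5 and 36.6% at equal covered bases. Other pathway genes called in all 4 lists, 46, numbered 29 with a fold of at least 5, where fewer peaks are kept. Over all genes that number went from 12555 to 6635. Regions called in all 4 lists were 24 of 62. They were 13 of 20 at a -log10 q of at least 5, 7 of 13 with a fold of at least 5 and 14 of 55 at equal covered bases. The shares over all regions were not computed at these settings. Vehicle-only regions, 2, numbered 1 at a -log10 q of at least 5 and 0 with a fold of at least 5. That 1 was neither of the 2. It was the Tead1 region at 48.0 to 52.8 kb from the lower end, called in all 4 lists as deposited. Its -log10 q was 1.70 and 2.12 with dDAVP, against 7.48 and 6.52 with vehicle. Vehicle-only regions also numbered 0 with equal numbers of peaks by either rule and at equal covered bases, where the weakest vehicle calls are dropped. Alternatives for start peaks, target genes and regions were chosen after seeing the data. Shortening a list drops whole peaks and leaves the width of the others as it was, so the count of 6 narrower start peaks has little room to change. With the replicate block, exact permutation within pairs gave p = 0.5 for the 8 genes and p = 1 for Tead2 and Amotl2, where 0.5 is the smallest p 2 pairs allow, so the pairing changed no call. With 2 lists per treatment, no difference between treatments at a gene could pass a test.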
